A study of Homo sapiens with 4 samples.

Results

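The lysosome was followed here through 37 genes: 10 proteases, 8 glycosidases, 8 enzymes and activator proteins of lipid and sulfate breakdown, 8 membrane and sterol-handling proteins, and the 3 transcription factors TFEB, TFE3 and MITF. They were taken by symbol from a table of read counts for 40205 genes, and all 37 were present and had enough counts to be tested. The cells were A549, a human lung adenocarcinoma line, transfected with small interfering RNA (siRNA) and harvested 24 h later. The control group (control 1 and control 2) received negative-control siRNA. The knockdown group (Knockdown-670 and Knockdown-732) received siRNA that targets the long non-coding RNA SBF2-AS1. Both groups thus shared the line and the transfection, and no untransfected cells were included. The labels do not say what the numbers of the knockdown libraries stand for, or whether libraries of a group came from separate cultures, so the spread behind each p-value may be technical.

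Lysosomes are acidic organelles in which hydrolases break down proteins, sugars and lipids that arrive by endocytosis and autophagy. Most soluble hydrolases carry mannose 6-phosphate, which receptors in the Golgi recognise and sort, and a proton pump, the V-ATPase, acidifies the lumen. TFEB, TFE3 and MITF bind a promoter element known as CLEAR, an extended E-box, and raise transcription of lysosomal genes; the kinase complex mTORC1 on the lysosome surface phosphorylates TFEB and TFE3 and keeps them out of the nucleus, so their activity is not read from their own mRNA level.

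The libraries held 12149767 to 12938143 counts each. The targeted RNA, SBF2-AS1, was counted 57 and 79 times in the controls, against 15 and 18 times in the knockdown libraries (edgeR adjusted p = 3.19e-05). All 10 epithelial and A549 markers examined reached at least 1 CPM in every library (counts scaled to a common library total; in this paragraph by library size alone). Their sum was 15780 to 16430 CPM in the controls and 10170 to 10210 CPM in the knockdown, but they did not move as one. The dehydrogenase ALDH1A1 stood at 5764 and 5090 against 2397 and 2636 CPM and the keratin KRT18 at 2421 and 2528 against 1358 and 1251 CPM, while the keratin KRT19 stood at 68.8 and 63.0 against 126 and 136 CPM and the cadherin CDH1 at 105 and 125 against 117 and 122 CPM. Of 12 macrophage and monocyte markers, 5, including HLA-DRA and CD163, were at 0 in every library, PTPRC had 1 count in all, and the list summed to 15.2 to 18.3 CPM in the controls and 14.5 to 15.3 CPM in the knockdown. Most of that sum came from CD14, at 12.3 and 10.1 against 8.4 and 9.5 CPM, and ITGAM, at 5.98 and 4.79 against 5.93 and 5.12 CPM. Fibroblast markers summed to 14.1 to 19.2 CPM, melanocyte markers to 4.64 to 5.84 CPM and endothelial markers to 0.411 to 0.850 CPM over the 4 libraries. In bulk RNA, fewer cells of a type and less RNA per cell cannot be told apart.

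The E-box CACGTG is the core of the CLEAR element, whose full consensus has GT before and AC after it; both read the same on either strand. Promoter windows of 300 bases, from 250 before to 50 after each RefSeq start site (GRCh38.p14), were at hand for 28 of the 37 genes, and 9 of those held at least 1 CACGTG (32.1%), against 8.77% of 27305 genes with a window and 12.5% of the 10176 that were also tested. Genes with several start sites have several windows and were counted once if any window matched. The full consensus was found in 2 of 28, GAA and MCOLN1, against 0.421% of all genes with a window and 0.904% of those also tested. Stretches are shown for the 5 genes with more than 1 match, and for CTSD and NEU1, with 1 match each, because both rose strongly; capitals mark CACGTG with any flanking letters of the consensus that adjoin it, and the lower-case bases are context.
CTSA (cathepsin A), chr20:45891279-45891329, + strand: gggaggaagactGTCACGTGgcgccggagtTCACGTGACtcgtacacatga
CTSD (cathepsin D), chr11:1763955-1763986, - strand: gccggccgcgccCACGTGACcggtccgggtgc
CTSF (cathepsin F), chr11:66568640-66568741, - strand: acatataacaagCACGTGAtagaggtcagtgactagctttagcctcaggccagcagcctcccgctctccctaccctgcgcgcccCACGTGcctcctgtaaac
GAA (acid alpha-glucosidase), chr17:80101491-80101569, + strand: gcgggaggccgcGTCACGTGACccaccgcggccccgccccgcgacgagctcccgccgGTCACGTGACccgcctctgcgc
NEU1 (sialidase), chr6:31862930-31862960, - strand: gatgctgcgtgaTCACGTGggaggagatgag
LAMP1 (membrane glycoprotein), chr13:113297033-113297230, + strand: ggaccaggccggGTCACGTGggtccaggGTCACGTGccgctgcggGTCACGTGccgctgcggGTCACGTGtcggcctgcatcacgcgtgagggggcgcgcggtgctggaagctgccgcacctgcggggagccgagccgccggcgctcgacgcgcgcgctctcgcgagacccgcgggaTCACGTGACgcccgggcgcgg
MCOLN1 (lysosomal calcium channel), chr19:7522569-7522623, + strand: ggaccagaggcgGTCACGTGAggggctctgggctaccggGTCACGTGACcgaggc
All of these lie upstream of the start site. LAMP1 held 5 matches in the stretch shown and a further 1 that spans its start site, and CD63 and ARSB held 1 each.

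Most of the lysosomal genes were higher in the knockdown. Of the 37, 24 rose, 4 fell and 9 did not pass (edgeR quasi-likelihood test over 16120 genes, threshold of 0.05 on the adjusted p). In the same test 46.3% of all genes passed, 23.5% higher and 22.8% lower, against 64.9% higher and 10.8% lower among the 37. The median log2 fold change of the 37 was 0.49 (1.41-fold), where that of all genes tested was -0.002. At least a 2-fold rise was seen for 3 of them, CD68, NPC1 and CTSD, against 5.57% of all genes, and none fell 2-fold, against 4.63%. Over 15 alternative settings the lowest log2 values of these 3 were 1.48, 0.95 and 0.79, so only CD68 kept a 2-fold rise throughout. In 27 of the 37 both knockdown libraries lay above both controls (36.4% of all genes tested), in 5 they lay below (36.2%), and in the other 5 the groups overlapped; over all genes 72.6% did not overlap. The members were chosen with earlier results of these data known, so their counts describe the list and carry no test of their own.

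Together the 37 genes held 0.542% and 0.546% of all counts in the controls and 0.808% and 0.801% in Knockdown-670 and Knockdown-732. The summed level was 5326 and 5336 CPM against 8335 and 8141 CPM, where CPM from here on are scaled to library sizes adjusted by the trimmed mean of M-values (TMM). The knockdown sum was 1.54 times that of the controls, and 1.52 times without PSAP, the most abundant member, which made up 27.5% to 29.4% of it. With 2 libraries a group an exact two-sided permutation test cannot go below p = 0.333, so no test of the sum is given.

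**Figure D1:**
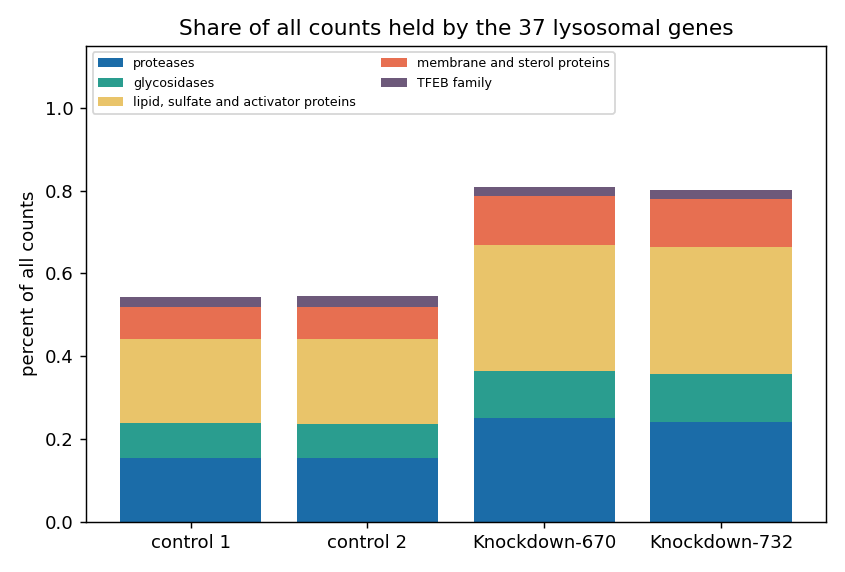
Percent of all counts in each library (y axis, starting at 0) held by the 37 lysosomal genes, stacked by role, with 1 bar per library. Both knockdown bars stand near 0.8% and both control bars near 0.54%, and every role but the TFEB family takes a larger share in the knockdown.

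Among the 10 proteases 8 rose and none fell (median log2 fold change 0.46). Those that rose were 80% of the group, where 23.5% of all genes tested rose and 22.8% fell. CTSD, the main aspartic protease of the lysosome, stood at 452 and 469 CPM in the controls and at 953 and 913 CPM in Knockdown-670 and Knockdown-732. Both knockdown libraries lay near a doubling of both controls, with a log2 difference of 1.02 (SE 0.07, edgeR adjusted p = 8.33e-10). The difference was 0.79 when corrected for the GC content and length of transcripts. The gene lies on the - strand of chromosome 11, from 1752752 to 1764573 in GENCODE v29 on GRCh38, and 1304 of its exonic bases are shared with AC068580.4, a gene known by its clone name on the same strand. CTSA, a serine carboxypeptidase that also protects beta-galactosidase and sialidase, went from 126 and 129 to 250 and 234 CPM (log2 0.92, SE 0.07, edgeR adjusted p = 4.79e-09). With the same correction CTSA stood at log2 0.67. TPP1, which removes tripeptides from the N-terminus of proteins, went from 112 and 121 to 185 and 180 CPM (log2 0.65). The groups did not overlap for any of the 3, as for 72.6% of all genes tested.

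The other 7 proteases are cysteine cathepsins of the papain family, of which 5 rose (71.4%, against 23.5% of all genes tested). CTSB, an abundant endopeptidase, stood at 448 and 441 CPM in the controls and 781 and 731 CPM in the knockdown (log2 0.77, SE 0.07, edgeR adjusted p = 4.12e-08). Corrected for GC content and length, CTSB was at log2 0.62. The rises of CTSH, an aminopeptidase, and CTSF were smaller: CTSH was at 15.6 and 13.9 against 20.97 and 20.96 CPM (log2 0.51), and CTSF at 44.8 and 43.7 against 57.1 and 60.0 CPM (log2 0.40, and 0.24 when corrected for the GC content and length of transcripts). CTSS, known in antigen-presenting cells for cutting the invariant chain, was at 31.0 and 27.7 against 34.8 and 40.9 CPM, and its rise (log2 0.37, SE 0.11, edgeR adjusted p = 0.0113) did not pass without control 2 (edgeR adjusted p = 0.0793), without Knockdown-732 (0.17) or in DESeq2 (0.0527), within a range of 2e-05 to 0.17 over 15 alternatives. CTSZ, a carboxypeptidase, was at 117 and 109 against 150.0 and 123 CPM, where Knockdown-732 lay only just above control 1. Its call (log2 0.27, SE 0.09, edgeR adjusted p = 0.0195) ended without Knockdown-670 (log2 0.12, edgeR adjusted p = 0.373) and without control 2 (0.0799), within a range of 0.00035 to 0.429 over 15 alternatives.

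CTSC, the dipeptidyl peptidase that activates granule serine proteases, was at 151 and 141 CPM in the controls and 144 and 133 CPM in the knockdown (log2 -0.08, edgeR adjusted p = 0.4), with overlapping groups. CTSO was scarce (counts of 23 and 27 against 23 and 17; log2 -0.22, SE 0.36), so a change of the size seen in CTSZ was not detectable at this depth.

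**Figure D2:**
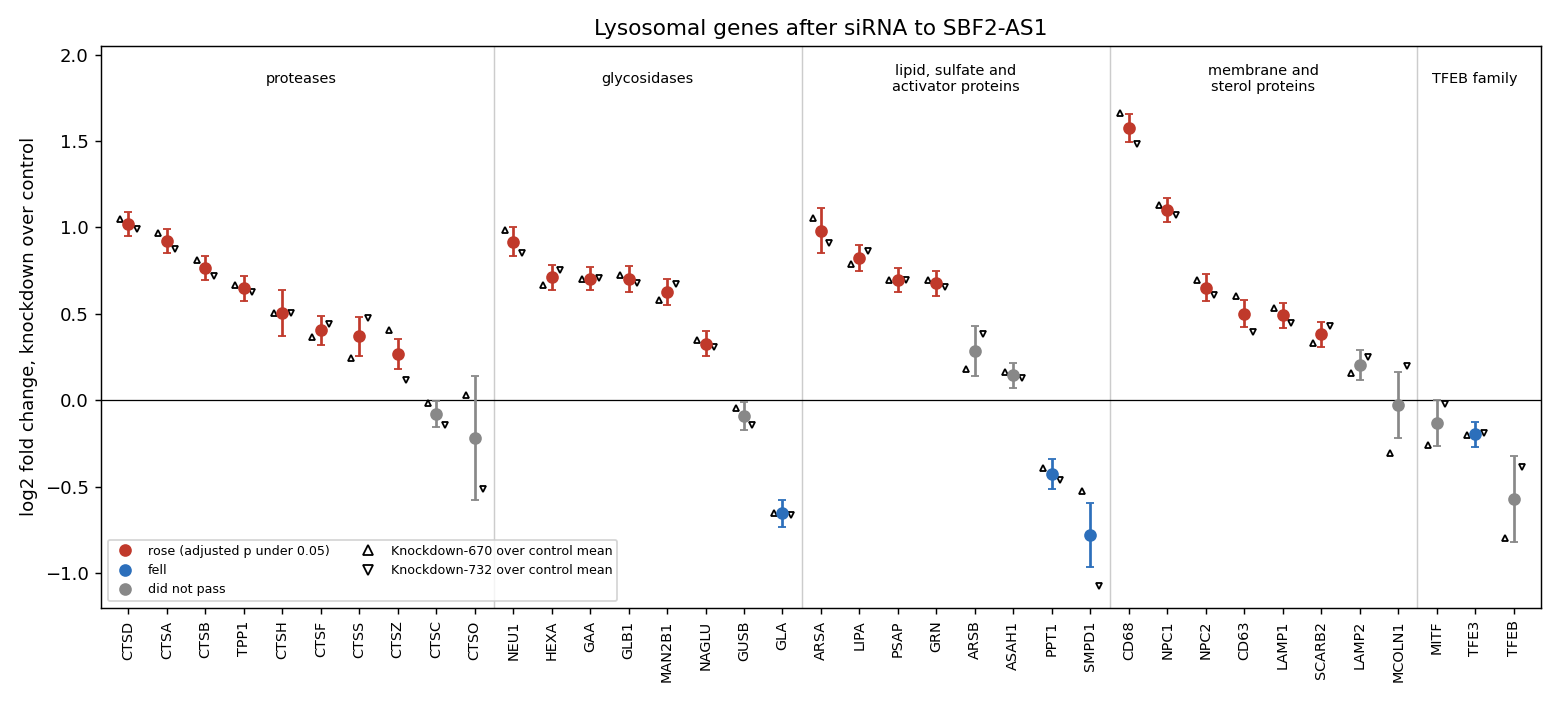
Log2 fold change of knockdown over control (y axis) for each of the 37 genes (x axis), grouped by role, with bars of 1 SE from edgeR; open triangles give the log2 ratio of each knockdown library's CPM to the control mean. CD68 is highest at 1.57 and SMPD1 lowest at -0.78; the triangles lie close together for most genes and furthest apart for SMPD1, CTSO, MCOLN1 and TFEB, which are scarce.

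The glycosidases, which remove sugars from glycogen, glycoproteins, glycolipids and glycosaminoglycans, rose in 6 of 8 cases and fell in 1 (median log2 fold change 0.66). These were 75% and 12.5% of the group, against 23.5% higher and 22.8% lower among all genes tested. Corrected for GC content and length, 5 rose and the group's median was 0.36. NEU1, the sialidase, went from 40.8 and 41.1 to 81.1 and 73.8 CPM, the largest rise of the group (log2 0.92, SE 0.09, edgeR adjusted p = 7.94e-08). The NEU1 controls differed by 0.714% of their mean, and the SD was 0.207 CPM in the controls and 5.13 CPM in the knockdown (n = 2 each). HEXA, the alpha subunit of beta-hexosaminidase, went from 179 and 161 to 270 and 286 CPM (log2 0.71), and GAA, which degrades glycogen, from 197 and 205 to 327 and 328 CPM (log2 0.70). MAN2B1, the alpha-mannosidase, went from 97.3 and 92.1 to 142 and 151 CPM (log2 0.63). Each of these 3 genes was higher in both knockdown libraries than in both controls, as were 36.4% of all genes tested. Corrected for GC content and length, GAA stood at log2 0.36 and MAN2B1 at 0.36, and both still passed. GLB1, beta-galactosidase, went from 68.0 and 62.7 to 108 and 105 CPM (log2 0.70). TMPPE, which overlaps GLB1 on the same strand, had nearly the same counts as GLB1 (864, 814, 1249 and 1281 against 880, 830, 1272 and 1328), so whether the 2 rows hold separate reads was not tested.

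NAGLU, which degrades heparan sulfate, showed the smallest rise among the glycosidases, from 80.4 and 78.4 to 101 and 98.3 CPM (log2 0.33, SE 0.07, edgeR adjusted p = 0.00135). Its transcript is rich in G and C (64.4%), and when GC content and length were corrected for, it stood at log2 0.06 (edgeR adjusted p = 0.541, range 0.000252 to 0.541 over 15 alternatives). GUSB, beta-glucuronidase and a common reference gene in RT-PCR, was at 101 and 89.3 against 92.1 and 86.2 CPM (log2 -0.09, edgeR adjusted p = 0.371), with overlapping groups. GUSB has near-identical pseudogene copies in the table, among them GUSBP11 with 629 counts in all, and reads may have been split between them.

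GLA ran against the rest of the group. This alpha-galactosidase, which cleaves globotriaosylceramide, fell from 87.9 and 86.5 CPM to 55.6 and 55.2 CPM, 36.5% lower (log2 -0.65, SE 0.08, edgeR adjusted p = 1.71e-06). Within each group the values were almost the same, and the fall was seen in both knockdown libraries (log2 -0.65 and -0.66).

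Of the 8 enzymes and activators of lipid and sulfate breakdown, 4 rose and 2 fell (median log2 fold change 0.48). These were 50% and 25% of the group, against 23.5% higher and 22.8% lower among all genes tested. The share that fell was thus near that of all genes. PSAP, the precursor of the saposins that present lipids to hydrolases, was the most abundant of the 37, at 1482 and 1469 CPM in the controls and 2389 and 2390 CPM in the knockdown (log2 0.70, SE 0.07, edgeR adjusted p = 1.27e-07). GRN, progranulin, whose granulins are released in the lysosome, was counted 3234 and 3667 times in the controls and 5031 and 5270 times in the knockdown (264 and 421 CPM on average, log2 0.68, and 0.46 at the lowest over 15 alternatives). ARSA, which desulfates sulfatide, nearly doubled from a low level, 12.8 and 14.4 to 28.2 and 25.5 CPM (log2 0.98, SE 0.13, edgeR adjusted p = 6.9e-06). The lowest log2 value of ARSA over 15 alternatives was 0.73. The sulfatase ARSB was at 13.4 and 16.4 against 16.9 and 19.4 CPM and did not pass (log2 0.29, edgeR adjusted p = 0.116).

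LIPA, the acid lipase that frees cholesterol from its esters, went from 62.6 and 62.3 to 108 and 114 CPM (log2 0.83, SE 0.08, edgeR adjusted p = 6.32e-08). It shares 65 exonic bases with IFIT2 on the opposite strand, and IFIT2, an interferon-induced gene, went from 52 and 54 counts to 736 and 785 while LIPA went from 810 and 824 to 1270 and 1440. Whether reads of IFIT2 were counted as LIPA was not tested. ASAH1, acid ceramidase, was at 97.7 and 102 against 112 and 109 CPM (log2 0.15, edgeR adjusted p = 0.109), and under the same GC and length correction it did pass, at log2 0.40 (edgeR adjusted p = 4.45e-05, range 4.45e-05 to 0.928 over 15 alternatives).

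The enzymes that fell were PPT1 and SMPD1. PPT1, the thioesterase that removes fatty acids from proteins, went from 61.0 and 59.8 to 46.02 and 43.97 CPM (log2 -0.42, SE 0.09, edgeR adjusted p = 0.000478). PPT1 overlaps CAP1 on the opposite strand by 1189 exonic bases; CAP1 rose (log2 0.33). SMPD1, acid sphingomyelinase, fell from 11.5 and 13.4 to 8.66 and 5.91 CPM (log2 -0.78, SE 0.19, edgeR adjusted p = 0.00207). Knockdown-732 was the lower of the knockdown libraries, and the difference was -0.53 (log2) without it and -1.08 without Knockdown-670.

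**Figure D3:**
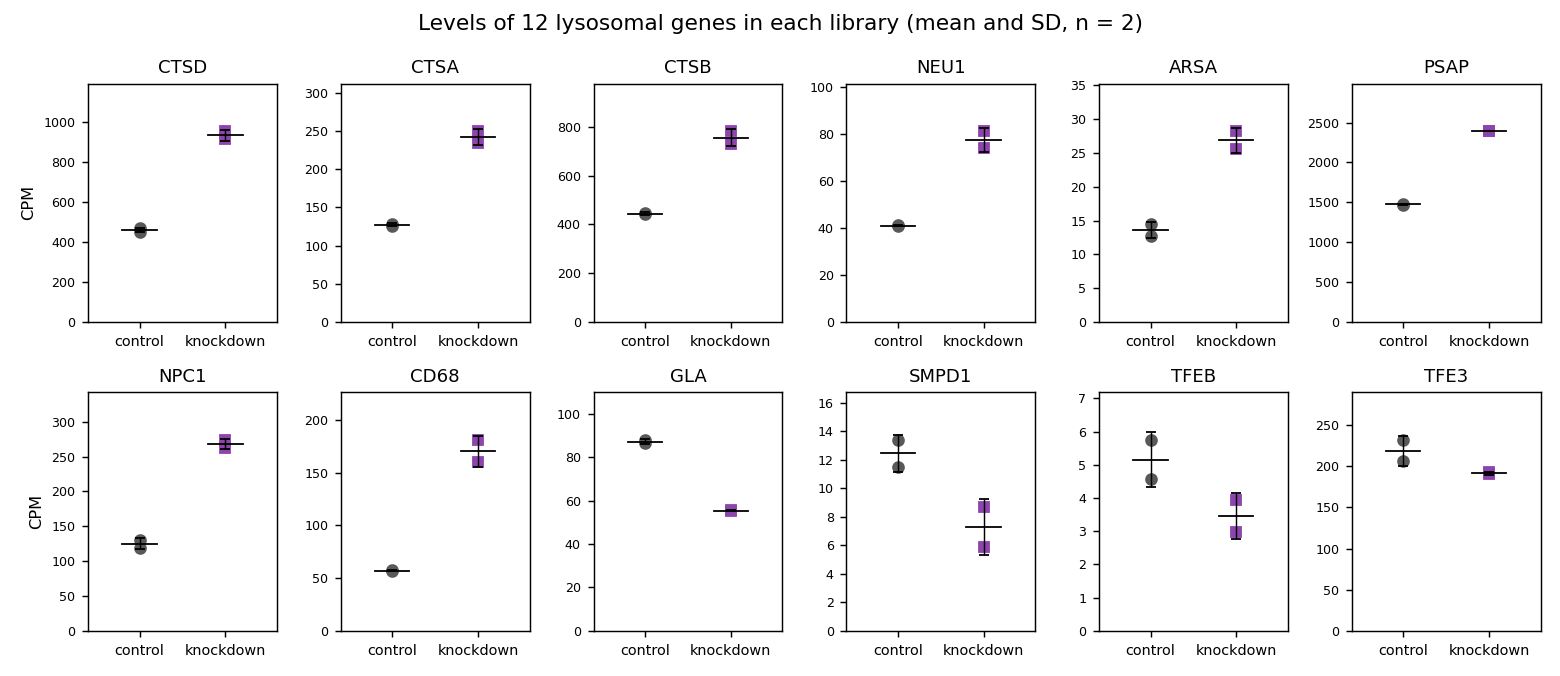
TMM-scaled CPM (y axis, from 0, own scale in each panel) of 12 of the genes in the 2 control libraries (circles) and the 2 knockdown libraries (squares), with mean and SD. CTSD, NPC1 and CD68 at least doubled, while GLA went from a mean of 87.2 to 55.4 CPM.

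The membrane and sterol-handling proteins rose in 6 of 8 cases and none fell (median log2 fold change 0.50). Those that rose were 75% of the group, against 23.5% higher and 22.8% lower among all genes tested. CD68, a heavily glycosylated protein of the lysosomal membrane that is widely used to stain macrophages, had the largest rise of all 37 genes. It went from 56.6 and 57.8 CPM to 181 and 160.0 CPM, 2.98-fold (log2 1.57, SE 0.08, edgeR adjusted p = 2.19e-11). Scaled by library size alone, the macrophage and monocyte markers, mostly CD14 and ITGAM, summed to 15.2 to 18.3 CPM in the controls and 14.5 to 15.3 CPM in the knockdown. CD68 lies on chromosome 17 and shares 1789 exonic bases, nearly its whole transcript of 1878 bases, with AC016876.2, a non-coding transcript on the same strand, so reads of the pair cannot be told apart. NPC1, which exports cholesterol across the lysosomal membrane, went from 120 and 130 CPM to 274 and 263 CPM (log2 1.10, SE 0.07, edgeR adjusted p = 6.01e-10). NPC2, the soluble protein that hands cholesterol to NPC1, went from 58.99 and 62.35 to 98.2 and 92.6 CPM (log2 0.65). Both members of this sterol relay, and LIPA ahead of them, were higher in both knockdown libraries than in both controls, as were 36.4% of all genes tested.

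LAMP1, one of the main glycoproteins lining the lysosomal membrane, went from 128 and 125 to 183 and 173 CPM (log2 0.49, SE 0.07, edgeR adjusted p = 1.44e-05; log2 0.31 with the GC and length correction). The tetraspanin CD63 went from 139 and 135 to 208 and 180 CPM (log2 0.50), and SCARB2, the receptor that carries glucocerebrosidase to the lysosome, from 136 and 140 to 173 and 185 CPM (log2 0.38). LAMP2, which also serves in chaperone-mediated autophagy, was at 109 and 91.5 against 112 and 119 CPM. It missed the threshold (log2 0.20, edgeR adjusted p = 0.0554) but passed in 6 of 15 alternatives, among them without control 1 (log2 0.33, edgeR adjusted p = 0.00393), without Knockdown-670 (0.0371) and with the GC and length correction (log2 0.53, 3.98e-06); its range over the alternatives was 3.98e-06 to 0.706. MCOLN1 was scarce, with 113 and 104 counts against 79 and 121 (log2 -0.03, edgeR adjusted p = 0.926), and its groups overlapped.

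None of the 3 transcription factors rose. TFE3 was by far the most abundant of them, at 206 and 232 CPM in the controls and 190 and 193 CPM in the knockdown (log2 -0.19, SE 0.07, edgeR adjusted p = 0.0341; log2 -0.45 with the GC and length correction). That call ended without control 2 (log2 -0.11, edgeR adjusted p = 0.297), without Knockdown-670 (0.105), without Knockdown-732 (0.0661) and in DESeq2 (0.079), within a range of 2.98e-06 to 0.784 over 15 alternatives. TFEB was counted only 59 and 76 times in the controls and 35 and 50 times in the knockdown libraries, or 4.56 and 5.74 against 2.97 and 3.94 CPM. Its groups did not overlap, but the difference did not pass (log2 -0.57, SE 0.25, edgeR adjusted p = 0.0672); it passed without control 1 (edgeR adjusted p = 0.0456), without Knockdown-732 (0.0369), with library size only (0.0437) and with the GC and length correction (0.0183), within a range of 0.0183 to 0.323 over 14 alternatives. MITF was at 19.3 and 21.01 against 16.8 and 19.9 CPM (log2 -0.13, edgeR adjusted p = 0.438), and its groups overlapped. The related factor TFEC had 2 counts in Knockdown-670 and 0 in the other 3 libraries, and was not tested.

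Levels of different genes were compared as CPM per kilobase of the longest coding transcript. In the controls PSAP led at 514 CPM per kilobase, followed by CTSD at 217, CTSB at 115, GRN at 113 and CD63 at 111 CPM per kilobase. These 5 also led in the knockdown, at 832, 439, 195, 180 and 157 CPM per kilobase in the same order. CD68 went from 30.5 to 90.8 CPM per kilobase. TFEB (1.99 and 1.33 CPM per kilobase) and CTSO (0.646 and 0.557) were at the bottom in both groups. Reads are not spread evenly along transcripts, so these per-length values give only an approximate order.

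Read against the promoter stretches shown above, 7 of the 9 genes with a CACGTG rose and none fell: CTSA, CTSD, CTSF, GAA, NEU1, LAMP1 and CD63 rose, and ARSB and MCOLN1 did not pass. Of the 19 genes with a window but no CACGTG, 11 rose. The median log2 fold change was 0.50 with a match and 0.38 without. CD68 and NPC1, the genes with the largest rises, had no CACGTG in their windows, and MCOLN1, with the full consensus, was at -0.03. The related letters TCATGTG (or CACATGA on the other strand) were searched for after the values were known. They were found in 6 of 28 genes (21.4%), against 3.59% of all genes with a window and 2.55% of those also tested. A match is a description of the letters and not a measured binding site.

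**Figure D4:**
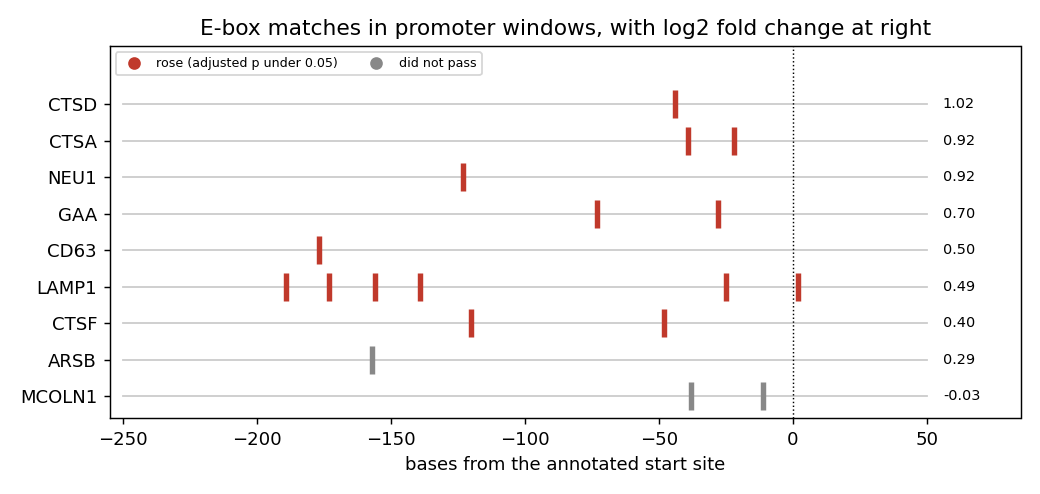
Position of each CACGTG match (vertical marks) in the promoter window of 9 genes, in bases from the annotated start site (dotted line), with the log2 fold change at the right; for genes with several windows the first with a match is drawn. Marks of the 7 genes that rose are red and those of ARSB and MCOLN1 grey; LAMP1 has the most, 6.

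Other genes of the lysosome were taken from lists by function. Of 34 tested hydrolases outside the 37, 19 rose and 5 fell (median log2 fold change 0.35). In all 70.6% were called, 55.9% higher and 14.7% lower, against 46.3%, 23.5% and 22.8% of all genes tested. GM2A, the activator that presents GM2 ganglioside to hexosaminidase, rose from 37.2 ± 0.375 CPM in the controls to 88.7 ± 3.87 CPM in the knockdown (SD, n = 2 in each group; edgeR adjusted p = 8.65e-10). SGSH, the sulfamidase of heparan sulfate breakdown, went from 20.6 ± 0.493 to 47.1 ± 0.640 CPM (log2 1.19, and 0.82 at the lowest over 15 alternatives). In the other direction, CTSL, a cysteine cathepsin of the same family as CTSB, fell from 385 ± 32.0 to 238 ± 2.89 CPM (log2 -0.69, edgeR adjusted p = 3.24e-07). Its close relative CTSV fell from 12.4 ± 0.666 to 5.72 ± 0.160 CPM (log2 -1.11), and GGH, which trims glutamates from folates, from 80.6 ± 12.3 to 41.6 ± 1.56 CPM (log2 -0.95). Cathepsins therefore moved both ways, CTSD, CTSA and CTSB higher and CTSL and CTSV lower.

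Of 17 subunits and accessory proteins of the V-ATPase, 11 rose and 2 fell (median log2 fold change 0.28). In all 76.5% were called, 64.7% higher and 11.8% lower, against 46.3%, 23.5% and 22.8% of all genes tested. With the GC and length correction 12 rose and 2 fell, and the median of the list was 0.38. ATP6AP1, an accessory subunit, went from 149 ± 3.10 to 239 ± 4.91 CPM (log2 0.68), and ATP6V0A1, a form of the membrane subunit a, from 84.9 ± 0.553 to 126 ± 0.506 CPM (log2 0.57). ATP6V0A2, another form of subunit a, fell from 31.4 ± 1.23 to 17.8 ± 2.16 CPM (log2 -0.82), and ATP6V1B2, a subunit of the ATP-hydrolysing part, from 60.3 ± 2.22 to 47.4 ± 4.32 CPM (log2 -0.35; SD, n = 2 in each case). With the GC and length correction ATP6AP1 stood at 0.44, ATP6V0A1 at 0.36 and ATP6V1B2 at -0.22 (log2). The ATP6V1B2 call ended without Knockdown-670 (edgeR adjusted p = 0.0557, range 0.000537 to 0.168 over 15 alternatives).

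Of 22 sorting and transport genes, 10 rose and 2 fell (54.5% called, 45.5% higher and 9.09% lower, against 46.3%, 23.5% and 22.8% of all genes; median log2 fold change 0.21). Both mannose 6-phosphate receptors rose: IGF2R, the large one, went from 318 ± 6.78 to 572 ± 8.36 CPM (log2 0.85) and M6PR from 114 ± 1.40 to 177 ± 4.59 CPM (log2 0.63; SD, n = 2 each). The clathrin adaptor subunit AP1G1 fell by 0.48 and the tethering subunit VPS33A by 0.59 on the log2 scale. Of 25 further membrane proteins, 11 rose and 4 fell (60% called, 44% higher and 16% lower; median 0.20), and 7 rose in DESeq2. The sialic acid exporter SLC17A5 was at log2 0.97 and the chloride-proton exchanger CLCN7 at 0.60, and TMEM106B and TMEM192 were at -0.72 and -0.58. Corrected for GC content and length, CLCN7 stood at 0.18 and TMEM106B at -0.45, and both still passed.

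Among 23 tested genes of mTORC1 and the control of TFE factors, 8 rose and 2 fell (34.8% higher and 8.7% lower, against 23.5% and 22.8% of all genes). In all 43.5% were called, below the 46.3% of all genes. The median log2 fold change was 0.19, and 0.08 with the GC and length correction. RRAGA, a Rag GTPase that recruits mTORC1 to the lysosome, went from 112 ± 3.86 to 224 ± 0.723 CPM (log2 0.99, edgeR adjusted p = 1.69e-09), and RRAGD, a scarcer Rag GTPase, from 9.98 ± 0.863 to 22.7 ± 1.198 CPM (log2 1.18; SD, n = 2 each). TSC2, an inhibitor of mTORC1, rose by 0.61 (0.20 with the GC and length correction), while the activator RHEB fell by 0.43 and the calcineurin subunit PPP3CB by 0.43 on the log2 scale. Of 27 autophagy genes 7 rose, 5 fell and 15 did not pass (median 0.01), with 44.4% called, near the 46.3% of all genes. The receptor OPTN was at log2 0.73 and the kinase ULK1 at 0.63 (0.20 when corrected for GC content and length), and the autophagosome proteins MAP1LC3B and GABARAPL1 were at -0.69 and -0.44. In the list of 22 interferon-response genes, all rose (median 2.47), against 23.5% of all genes.

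**Figure D5:**
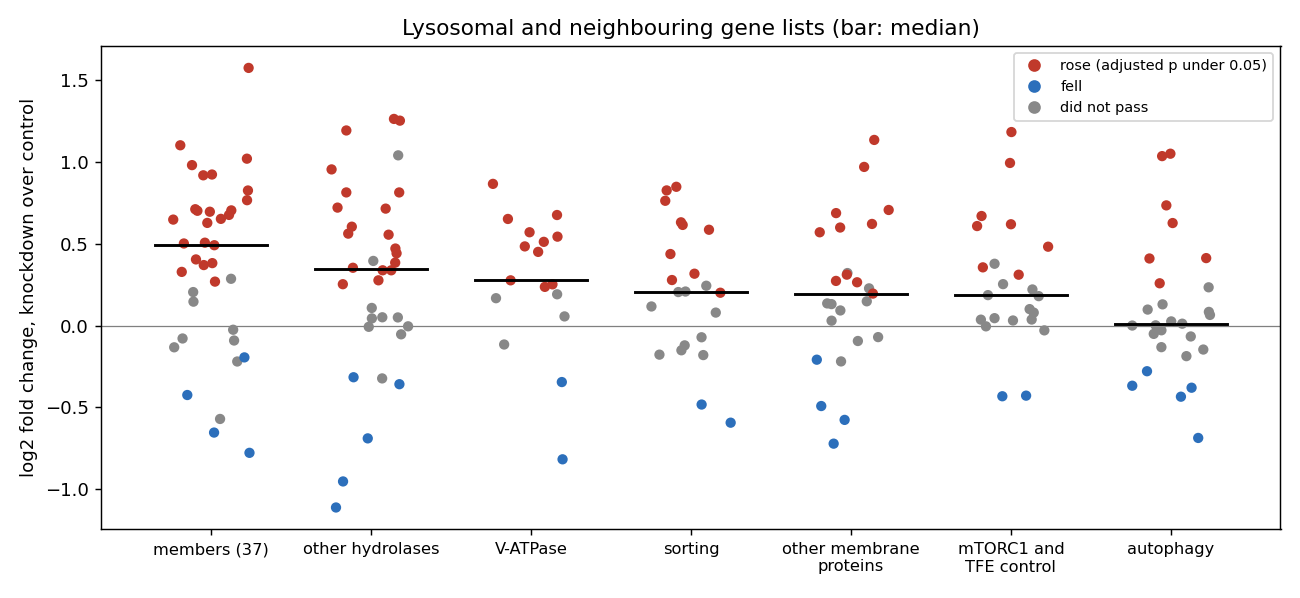
Log2 fold change (y axis) of each tested gene in the 37 lysosomal genes and 6 lists of related genes (x axis), coloured by the edgeR call at an adjusted p of 0.05; black bars give medians. The medians run from 0.49 for the 37 genes to 0.01 for autophagy, and every list holds genes that rose and genes that fell.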

How the data were processed

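The deposited table gives raw counts by gene symbol for 4 libraries of total RNA from A549 cells; per the labels, siRNA was transfected with Lipofectamine iMAX, RNA was extracted with Trizol and libraries were run on the Ion Proton. Per the submitters' processing notes the genome build was GRCh37; aligner, counting program, annotation and strand setting are not given in the sources. Reads of overlapping genes or near-identical copies cannot be traced. TPP1 (756 bases), MAN2B1 (704 and 435), HEXA (617), NAGLU (379), MCOLN1 (169 and 6) and NPC2 (72) also share exonic bases with same-strand genes. Opposite-strand genes share exonic bases with HEXA (1273 and 364), CTSA (1038, 430 and 200), NPC1 (604), CTSD (493) and GLB1 (320 and 34). They also do with ASAH1 (251), CD63 (237), TPP1 (185), CD68 (150), LIPA (135, besides IFIT2) and NPC2 (103). No column belonged to another sample (0).

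Groups came from the sample titles. Replicates differed by more than counting noise (chi-square per gene of 3.95 for the controls, 3.61 for the knockdown pair, and 49.3 to 55.0 across groups), so none was counted as a copy. The test was edgeR's robust quasi-likelihood fit (edgeR 4.0.16, R 4.3.3) after filterByExpr and TMM scaling, with Benjamini-Hochberg adjustment at 0.05 over all 16120 genes. SE is the log2 fold change over the root of F. In simulated counts of 15861 genes the test found 66.7% of the 63 genes changed 1.5-fold, 82.1% of the 67 changed 2-fold, and 97% of the 66 changed 4-fold. The simulation changed few genes and gave all genes a common dispersion, unlike the data, so these shares may not hold for the data. Alternatives were other scalings and filters, each library left out, limma-voom (limma 3.58.1), DESeq2 1.42.0, a non-robust fit, edgeR's exact test, glmTreat (1.2-fold), and a GC and length correction (available for 91.2% of genes and all 37 members).

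All 37 members are named, and from each other list up to 4 called genes of smallest p, 2 a direction where possible. The members and lists were chosen with earlier results of these data known; CTSV, RRAGD and TFEC were named after their values were seen. Positions, lengths and overlaps are from GENCODE v29 (GRCh38) and promoters from RefSeq (GRCh38.p14), joined by symbol: 28572 symbols matched directly, 1296 by synonym and 10337 not at all. A planned comparison of protein sequences was not made.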

Additional observations from a re-analysis of the deposited data

How the results depend on the processing

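Over 15 alternatives the number of the 37 genes that rose ran from 19 to 25 and the number that fell from 3 to 5, beside 24 and 4. Their median log2 fold change, 0.49, was 0.43 with library size only, where the median of all genes moved to -0.07, and ran from 0.44 to 0.50 with 1 library left out. Of the 24 that rose, 19 did so under every alternative, as did 3 of the 4 that fell, and 0 reversed; the exceptions were CTSF, SCARB2 and NAGLU (glmTreat adjusted p = 0.0567, 0.0527 and 0.178), CTSS, CTSZ and TFE3. CTSZ also did not pass with library size only (edgeR adjusted p = 0.058) or the GC and length correction (0.0643). Among all genes glmTreat called 2451 higher and 2229 lower, in place of 3785 and 3678. It asks for more than a 1.2-fold change, and under it fewer genes of the lists passed: lower calls were 3 of the other hydrolases, 1 of the V-ATPase, 2 of the other membrane proteins (7 higher), 1 of the mTORC1 list and 2 of the autophagy list. In DESeq2, 3 other hydrolases fell and 7 other membrane proteins rose; corrected for GC and length, 4 mTORC1 and 4 sorting genes fell, as did 5 sorting genes with library size only. The cause was not tested. With 1 library left out, lower calls ran from 3 to 5 for the other hydrolases (3 without control 1 or Knockdown-670), 1 to 2 for the V-ATPase (1 without Knockdown-670), 2 to 4 for the other membrane proteins (2 without Knockdown-732) and 2 to 7 for autophagy (2 without control 1 or Knockdown-670). The median of the mTORC1 list was 0.11 without control 2, and that of the autophagy list was -0.05 with library size only. Of the genes that did not pass, CTSC, CTSO, MCOLN1 and MITF changed sign under at least 1 alternative and were not called there. PPP3CB did not pass with glmTreat (adjusted p = 0.0756) or with the GC and length correction (0.177, range 0.0017 to 0.177). No paired analysis was possible because the groups share no replicate numbers. Depth limits the scarce genes: TFEB, CTSO, MCOLN1 and SMPD1 had 17 to 177 counts a library.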
